A study of Mus musculus with 16 samples.

Results

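Peaks of N6-methyladenosine (m6A) in genes for long non-coding RNAs (lncRNAs) were taken from the peak lists of 8 immunoprecipitation (IP) libraries of mouse peri-infarct cerebral cortex. A peak was a member if the gene with the most exonic overlap on its strand was annotated as lncRNA in GENCODE M39 and if it shared no exonic base with a protein-coding gene on that strand. Of the 169564 peaks in the 8 lists, 9792 were members, in 1838 lncRNA genes, and 153133 autosomal peaks lay in protein-coding genes. Another 240 peaks in lncRNA genes were left out because they lay on chrX or chrY, and 66 because they overlapped a protein-coding exon on the same strand. The mice were male C57BL/6J animals of 6 to 8 weeks. In MCAO/R (middle cerebral artery occlusion and reperfusion) a nylon filament blocked the artery for 2 h and was then withdrawn, and cortex was taken after 0, 6 or 24 h of reperfusion (the Re_0h, Re_6h and Re_24h libraries of the labels, called 0 h, 6 h and 24 h here). Sham mice had the same operation without the filament. Each of the 4 groups had 2 IP libraries. The labels do not say whether the libraries came from separate animals, so the p-values below measure the spread between these samples, which may be technical.

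m6A is the most common internal modification of messenger RNA and is also laid on lncRNAs while they are transcribed, by the METTL3 and METTL14 writer complex, mostly at the motif RRACH (R is A or G, H is A, C or U, the A before the C is the methylated base). MeRIP-seq pulls down RNA fragments with an antibody to m6A and calls a peak where the IP reads exceed the reads of the input. Brain is rich in lncRNAs, among them imprinted transcripts of neurons (Meg3, Rian), transcripts that silence or shadow neighbouring genes (Kcnq1ot1, Sox2ot) and precursors of microRNAs. A peak in such a gene marks a stretch of RNA that can be bound by m6A reader proteins. A peak needs both the RNA and the modification, and because tissue was sequenced in bulk, fewer cells of a type and less RNA per cell cannot be told apart.

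The peaks of the best studied lncRNAs are shown here by the stretch that the largest number of lists shared (GRCm39, 5′ to 3′ on the annotated strand, + or −, RRACH in capitals). Meg3, Rian and Kcnq1ot1 are imprinted, and Sox2ot and Dlx6os1 overlap or flank transcription factor genes of the nervous system; each stretch below was covered in all 8 lists.
Meg3 chr12:109525249-109525298 (+): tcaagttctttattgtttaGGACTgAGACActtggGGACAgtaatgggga
Rian chr12:109627401-109627525 (+): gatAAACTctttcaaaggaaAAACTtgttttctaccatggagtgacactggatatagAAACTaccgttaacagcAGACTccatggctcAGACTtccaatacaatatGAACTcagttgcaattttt
Kcnq1ot1 chr7:142812195-142812319 (-): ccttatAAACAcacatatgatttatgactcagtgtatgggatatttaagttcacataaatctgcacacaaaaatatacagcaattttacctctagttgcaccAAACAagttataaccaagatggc
Sox2ot chr3:34695544-34695618 (+): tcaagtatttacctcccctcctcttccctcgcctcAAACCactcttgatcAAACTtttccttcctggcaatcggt
Dlx6os1 chr6:6824237-6824361 (-): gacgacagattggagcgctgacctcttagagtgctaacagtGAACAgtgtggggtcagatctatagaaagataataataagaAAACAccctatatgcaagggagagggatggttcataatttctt
The Meg3 stretch of 50 nt holds 3 RRACH sites and the Rian stretch of 125 nt holds 6. Kcnq1ot1 and Dlx6os1 have 2 each in 125 nt, and the printed Sox2ot stretch has 2 in 75 nt. A second Sox2ot stretch covered in all 8 lists, chr3:34710186-34710260, holds 0 on the annotated strand and 4 on the other strand.

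Outside coding gene bodies, 3 lncRNA regions were in all 6 MCAO/R lists and neither Sham list, and 7 in both Sham lists and no MCAO/R list. From each of these sets the region with the highest mean score percentile is shown. The Mir100hg region was listed in all 6 MCAO/R libraries and in neither Sham library, and the Gad1os region in both Sham libraries and in no MCAO/R library.
Mir100hg chr9:41550892-41550966 (+): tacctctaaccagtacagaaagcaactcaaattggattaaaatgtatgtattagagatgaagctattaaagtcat
Gad1os chr2:70323168-70323242 (-): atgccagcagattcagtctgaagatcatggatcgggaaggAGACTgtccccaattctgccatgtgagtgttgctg
The Mir100hg stretch holds 0 RRACH sites on the annotated strand and 0 on the other strand, and the Gad1os stretch holds 1 and 2.

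Before the results, 1 property of the lists has to be given. Of the 1838 lncRNA genes, 1213 (66.0%) overlapped a protein-coding gene on the opposite strand, 513 (27.9%) overlapped no protein-coding gene body and 112 (6.09%) overlapped one on the same strand. Of the 9792 peaks, 3197 lay over a protein-coding exon of the other strand, 1249 lay in a protein-coding gene body without touching such an exon, and 5346 lay outside the bodies of protein-coding genes on both strands. These classes made up 32.8% ± 1.69, 12.7% ± 0.971 and 54.4% ± 1.96 of the lncRNA peaks of a list (SD, n = 8). In 57 cases a list held 1 span on both strands, 46 times with the same score, and in 20 of them 1 of the pair was an lncRNA peak, 16 times with the same score. At these spans the calls did not separate the strands, and neither the labels nor the study's methods state whether the libraries were stranded. Reads of an lncRNA and of the coding gene antisense to it therefore cannot be told apart where their exons overlap.
The following pair of stretches shows the case. Both lie over coding exons of the opposite strand, that of Adgrl3 (an adhesion G protein-coupled receptor of synapses) for Gm16054 and that of Hspa1a (the stress-inducible Hsp70) for Gm20481.
Gm16054 chr5:81942314-81942407 (-): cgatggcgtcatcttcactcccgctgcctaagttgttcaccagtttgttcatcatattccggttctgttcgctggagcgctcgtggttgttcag
Gm20481 chr17:35190926-35191023 (+): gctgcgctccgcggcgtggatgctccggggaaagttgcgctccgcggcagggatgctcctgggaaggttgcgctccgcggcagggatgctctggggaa
On the annotated strand the Gm16054 stretch of 94 nt holds 0 RRACH sites, whereas its reverse complement, the strand of Adgrl3, holds 6. The Gm20481 stretch holds 0 on either strand.

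The 3 classes differed in the strand of the motif. RRACH sites were counted per kb of peak on the annotated strand and on the reverse complement of the same bases, overlapping sites included. Peaks over a coding exon of the other strand had 14.5 ± 0.632 sites per kb on the annotated strand and 14.3 ± 0.432 on the other (SD, n = 8). The log2 ratio was 0.03 ± 0.094 (SD, n = 8), above 0 in 5 of 8 lists (p = 0.438, adjusted p = 0.438, exact permutation test by sign flips, two-sided over the 8 libraries). Peaks outside coding gene bodies had 18.7 ± 0.482 and 12.7 ± 0.359 sites per kb, a log2 ratio of 0.56 ± 0.070 (SD, n = 8), above 0 in 8 of 8 lists (p = 0.00781, adjusted p = 0.00911, same exact permutation test). The exons of the same lncRNAs outside every peak gave 0.10, and the peaks exceeded them by 0.46 ± 0.068 in 8 of 8 lists (p = 0.00781, adjusted p = 0.00911, exact permutation test). Peaks in a coding gene body without a coding exon had a log2 ratio of 0.87 ± 0.145, and peaks of protein-coding genes 0.68 ± 0.012 (SD, n = 8; each above 0 in 8 of 8 lists, p = 0.00781, adjusted p = 0.00911, exact permutation test). The exons of the same lncRNAs outside peaks gave 0.35 for the class in coding gene bodies and 0.11 for the class over other-strand exons, so the classes also differed outside their peaks.
The difference between peaks outside coding bodies and peaks over other-strand exons was 0.53 ± 0.067 (SD, n = 8; 8 of 8 lists, p = 0.00781, adjusted p = 0.00911, exact permutation test). The value 0.00781 is the smallest that 8 libraries can give, the adjustment runs over 7 strand tests, and all 7 tests were added with the lists already seen. The classes also differed in mirror peaks: 59.9% ± 3.18 of the peaks over other-strand coding exons had a peak on the opposite strand in the same list, against 0.914% ± 0.513 in gene bodies and 4.93% ± 0.585 outside them (SD, n = 8). The results below are given for all members and, where it changes them, by class.

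**Figure D1:**
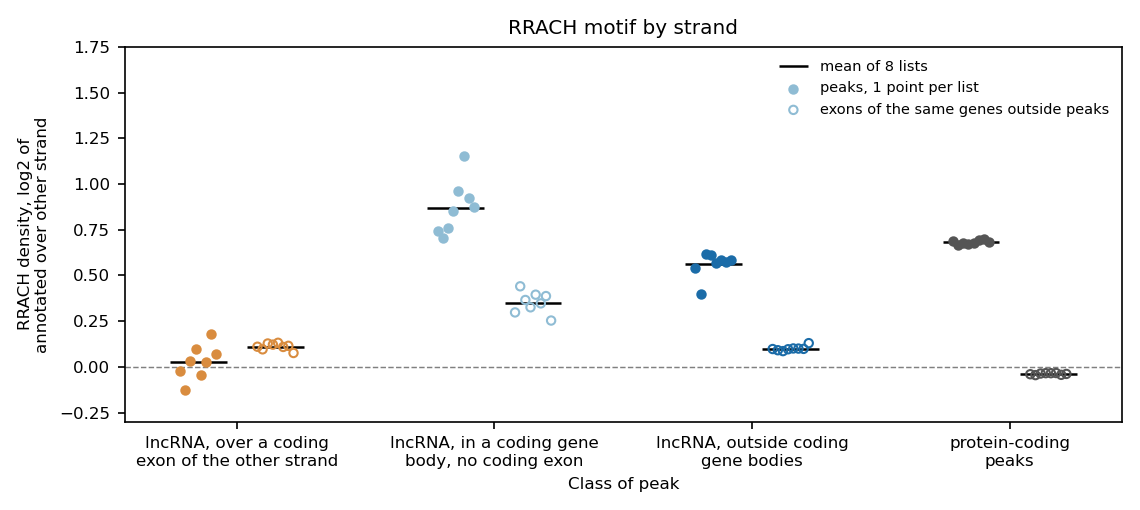
RRACH density of peaks as the log2 ratio of the annotated over the other strand (y axis), by class of peak (x axis), with 1 filled point per peak list, open points for the exons of the same genes outside peaks and bars for the mean of 8 lists. Peaks over a coding exon of the other strand average 0.03, and peaks outside coding gene bodies average 0.56.

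Most of the genes are little studied. Of the 1838, 1164 (63.3%) carry a Gm number, 480 (26.1%) a Rik clone name and 194 (10.6%) another symbol, and 213 have a single exon. For 640 genes all transcripts are tagged in the annotation as TAGENE models built from long reads. A list held peaks in 584 to 925 lncRNA genes. Over the lists 673 genes were seen in 1 list only and 217 in all 8.

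The lncRNA share of the autosomal peaks was 5.02% and 5.67% in Sham, 5.44% and 6.62% at 0 h, 5.82% and 6.00% at 6 h, and 6.06% and 6.59% at 24 h. Both Sham lists lay below both lists of 6 h and 24 h, and overlapped those of 0 h. The group means were 5.34% ± 0.462, 6.03% ± 0.835, 5.91% ± 0.131 and 6.32% ± 0.375 (SD, n = 2 each). Their range of 0.980 percentage points did not pass the test against the spread between replicates (p = 0.4, adjusted p = 0.600 over 3 group tests, one-sided exact permutation test over the 105 divisions of the libraries into 4 pairs, smallest possible p 0.00952). The lists held 18775 and 20152 peaks in Sham, 19837 and 24078 at 0 h, 22205 and 23200 at 6 h, and 19072 and 22245 at 24 h. Replicate 2 had the larger list and the larger lncRNA share in all 4 groups. With every list cut to its 18775 highest-scoring peaks the range of the share was 0.798 percentage points (p = 0.105, same exact permutation test).

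**Figure D2:**
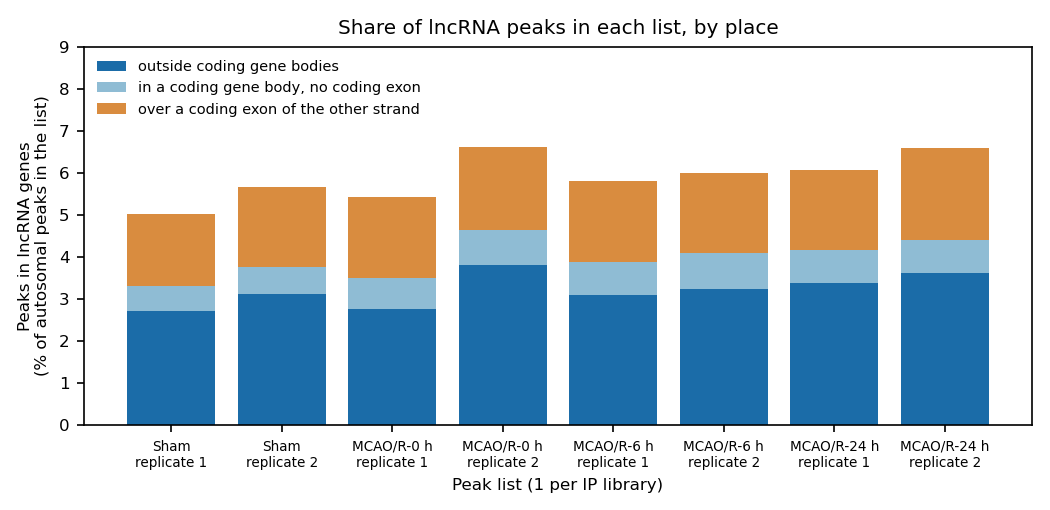
Peaks in lncRNA genes as a percentage of the autosomal peaks of each list (y axis), for the 8 IP libraries (x axis), stacked by class of peak. The bars reach 5.02% and 5.67% in Sham and 5.44% to 6.62% in the 6 MCAO/R lists.

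lncRNA peaks ranked lower than coding peaks. The score of a peak has no defined scale, so it was used as a score percentile, the share of the peaks of the same list with a lower score. The median percentile of the lncRNA peaks lay between 34.6 and 40.3 in the 8 lists, and that of coding peaks between 50.7 and 51.3. The difference was −14.4 ± 2.0 points (SD, n = 8), below 0 in 8 of 8 lists (p = 0.00781, adjusted p = 0.00938 over 6 tests within libraries, exact permutation test by sign flips, two-sided). Among the higher-scoring 50% of each list the difference was −1.86 points (p = 0.00781, exact permutation test). Between 34.5% and 39.8% of the lncRNA peaks were in the upper 50% of their list, and 6.92% to 9.05% in the top 10%. By group the mean of the medians was 37.7 ± 3.69 in Sham, 37.3 ± 0.312 at 0 h, 35.6 ± 1.18 at 6 h and 35.8 ± 1.79 at 24 h (SD, n = 2 each), a range of 2.04 points (p = 0.695, adjusted p = 0.695, one-sided exact permutation test). The peaks over a coding exon of the other strand ranked higher, with a median of 45.5 ± 2.29, than those outside coding bodies, with 32.3 ± 1.55, a difference of 13.1 ± 2.62 points in 8 of 8 lists (SD, n = 8; p = 0.00781, adjusted p = 0.00911, exact permutation test). The length of the exonic part had a median of 100 to 125 nt in every list for both kinds, and lncRNA minus coding was −3.19 ± 9.74 nt (SD, n = 8; p = 0.5, adjusted p = 0.5, exact permutation test).

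Joined over the lists by at least 1 shared exonic base, the lncRNA peaks formed 3694 regions of 51354 autosomal regions. A single list held 57.1% of the lncRNA regions (2111) and 52.0% of the 46678 coding regions. All 8 lists held 210 lncRNA regions (5.69%), in 182 genes, and 4365 coding regions (9.35%). The median score percentile rose with recurrence, from 13.6 for lncRNA regions in 1 list to 64.1 for those in all 8. By class, 81 of 1074 regions over other-strand coding exons (7.54%), 16 of 578 in coding bodies (2.77%) and 113 of 2042 outside them (5.53%) were in all 8 lists.

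**Figure D3:**
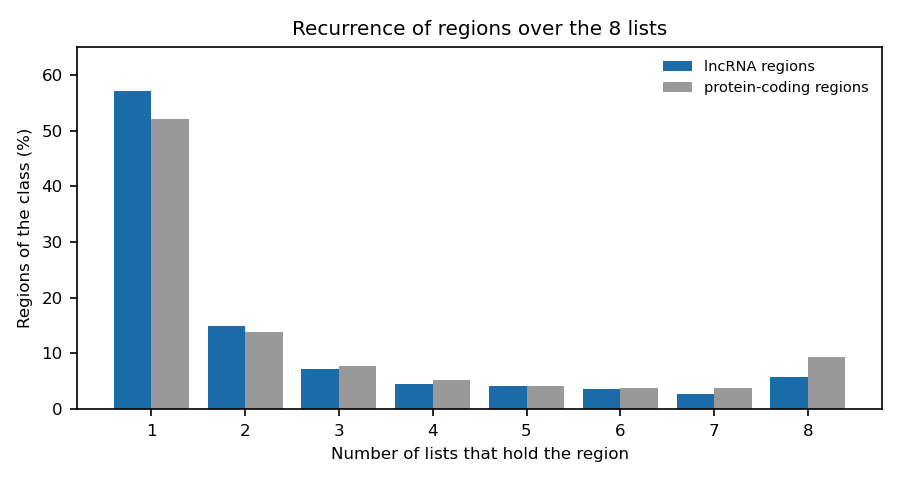
Share of regions (y axis, %) by the number of lists that hold them (x axis, 1 to 8), for lncRNA and protein-coding regions. In all 8 lists were 5.69% of the lncRNA regions and 9.35% of the coding regions.

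Of the lncRNA peaks of a list, 47.5% ± 7.56 overlapped, in exonic bases, a peak from the group's other library, against 54.8% ± 4.72 of coding peaks (SD, n = 8). The difference was −7.27 ± 3.2 points (SD, n = 8), below 0 in 8 of 8 lists (p = 0.00781, adjusted p = 0.00938, exact permutation test by sign flips, two-sided). The 8 values come from 4 pairs of libraries, and over the 4 groups, with −8.51, −4.88, −6.61 and −9.08 points, the exact permutation test gives p = 0.125, the smallest it can reach. In the higher-scoring 50% of each list it was −2.56 points (p = 0.0312, exact permutation test). Within 4 equal parts of each list by score the difference was 0.426 points (p = 0.641, exact permutation test). From the lowest to the highest part, 22.5%, 42.4%, 68.8% and 85.1% of the lncRNA peaks and 24.5%, 42.4%, 63.0% and 87.2% of the coding peaks were shared. In single parts the mean difference was between −2.10 and 5.78 points. Over the 8 lists it ran from 1.08 to 11.6 points in the third part and from −4.40 to −0.534 in the highest. The value of 0.426 thus averages parts that differed in opposite directions.

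**Figure D4:**
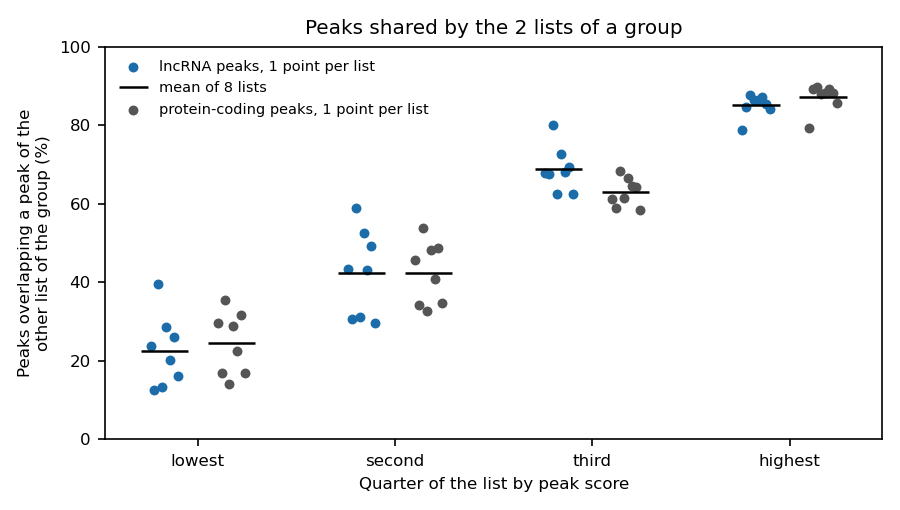
Share of peaks that overlap a peak of the other list of the group (y axis, %), by score rank in the list cut into 4 equal parts (x axis), with 1 point per list and bars for the mean of 8 lists. The lncRNA means rise from 22.5% to 85.1% and the coding means from 24.5% to 87.2%.

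Libraries of 1 group shared slightly more lncRNA regions than libraries of different groups. The Jaccard index (shared regions over all regions of a pair) was 0.312 ± 0.0222 in the 4 pairs of the same group and 0.296 ± 0.0144 in the 24 pairs of different groups (SD over pairs). The difference of 0.0159 had p = 0.0286 but did not pass after adjustment (adjusted p = 0.0857, one-sided exact permutation test over 105 divisions). Without 0 h replicate 1 or 2 it was 0.0141 (p = 0.0667) and 0.0153 (p = 0.0571), and without 6 h replicate 1 or 2 it was 0.00774 (p = 0.124) and 0.00922 (p = 0.105), all by the same exact permutation test.

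RRACH sites were denser in lncRNA peaks than elsewhere in the same genes. The exons compared were those of gene models, without TAGENE transcripts where a gene had others. lncRNA peaks had 17.6 ± 0.443 sites per kb and the exons of the same genes outside every peak, weighted by peak length, 15.2 ± 0.0792 (SD, n = 8). The log2 ratio was 0.21 ± 0.031, above 0 in 8 of 8 lists (p = 0.00781, adjusted p = 0.00938, exact permutation test by sign flips, two-sided). Against coding peaks the density was lower, with a log2 ratio of −0.09 ± 0.031 (SD, n = 8; 8 of 8 lists below 0, p = 0.00781, adjusted p = 0.00938, exact permutation test). That difference did not hold without the peaks over coding exons of the other strand, where the ratio was 0.02 (p = 0.164), nor for peaks outside coding gene bodies alone, where it was 0.00 (p = 0.953, exact permutation tests).

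Along the transcript, lncRNA peaks were placed less often in the last exon than even placement gives. In messenger RNAs m6A is known to be concentrated in the long last exon, around the stop codon. Of the lncRNA centres in transcripts with more than 1 exon, 48.8% ± 1.92 lay in the last exon, where even placement along the same transcripts gives 57.1% ± 0.995 (SD, n = 8). The log2 ratio was −0.23 ± 0.035, below 0 in 8 of 8 lists (p = 0.00781, adjusted p = 0.00938, exact permutation test by sign flips, two-sided). On the longest transcript of each gene in place of the canonical one the log2 ratio was −0.14 (p = 0.00781, exact permutation test). Within the last exon the centres crowded towards its start: over the 8 lists, 45.6% were in the first of 4 equal parts of the exon, 24.8% in the next, 16.6% in the one after and 13.1% in the last. In all 8 lists the first part was the fullest, with 40.8% to 49.8%. Of all centres, 39.9% fell off the canonical transcript of their gene, in exons of other models, and were not placed.

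The named lncRNAs are taken by role, and their levels of RNA are not known from the peak lists. Of the imprinted lncRNAs, 7 of 8 with an annotation had a peak and 4 had peaks in all 8 lists (Meg3, Rian, Kcnq1ot1 and Snhg14). Meg3 (chr12:109506877-109538165, +), the maternally expressed RNA of the Dlk1 locus, had its leading region of 200 nt at chr12:109525199-109525398. Its score percentiles were 95.5 and 91.8 in Sham, 93.4 and 94.6 at 0 h, 88.18 and 90.03 at 6 h, and 94.0 and 90.6 at 24 h, so Meg3 stayed near the top of every list, with both 6 h values below the other 6. Rian, which carries clusters of snoRNAs in the same locus, stood at 97.1 and 96.6 in Sham, 95.3 and 96.5 at 0 h, 95.8 and 93.7 at 6 h, and 94.5 and 96.4 at 24 h. Both Sham values of Rian were the highest of the 8, and the MCAO/R mean minus the Sham mean was −1.50 points. Mirg, the microRNA host at the end of the locus, had peaks in 5 lists, the best of each at a percentile of 5.64 to 48.8.

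Kcnq1ot1 (chr7:142731402-142850327, −), the paternally expressed antisense transcript in the Kcnq1 gene that silences its neighbours in cis, had more regions than any other lncRNA, 45, of which 3 were in all 8 lists. Its gene model holds 93651 exonic nt, of which 9.72% lay in a peak of any list, and the count of regions was not scaled by length. The number of peaks was 12 and 9 in Sham, 9 and 15 at 0 h, 22 and 26 at 6 h, and 15 and 14 at 24 h. They covered 1900 and 1700 exonic nt in Sham, 1700 and 2375 at 0 h, 4575 and 5475 at 6 h, and 2550 and 3600 at 24 h. Both values of 6 h were above those of every other group, and both of 24 h were above both of Sham. The region around the printed stretch, chr7:142811945-142813019, ranked at 70.1 and 87.9 in Sham, 80.7 and 97.1 at 0 h, 98.1 and 98.3 at 6 h, and 97.1 and 97.7 at 24 h. The other 2 regions in all 8 lists differed from each other. That at chr7:142777695-142779194 stood at 88.1 and 94.0 in Sham, 69.45 and 75.9 at 0 h, 98.1 and 96.5 at 6 h, and 81.8 and 84.0 at 24 h. Its 0 h and 24 h values were thus below both Sham values. That at chr7:142782245-142783594 ranked at 56.8 and 45.1 in Sham and 64.2 and 45.8 at 0 h. It stood at 89.9 and 86.1 at 6 h and 76.6 and 85.1 at 24 h, above both Sham values as in the printed region. With 2 libraries against 2 an exact permutation test cannot go below p = 0.333, so these differences of Kcnq1ot1 are given without a test, and whether its RNA moved was not tested.

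Snhg14 (the transcript antisense to Ube3a) had 4 regions, none in all 8 lists, with its best percentile between 62.7 and 96.3. Peg13, an imprinted transcript within Trappc9, had peaks in 7 lists. Its region chr15:72678910-72679059 ranked at 91.7 and 93.3 in Sham, was in neither 0 h list, stood at 88.3 and 89.2 at 6 h, and was in 24 h replicate 2 alone, at 91.5. The Peg13 region was thus counted as lost at 0 h but was listed again in 3 of the 4 later libraries. Airn, the antisense transcript of Igf2r, was in 6 lists, with its best peak at percentiles of 8.88 to 81.6 and the highest values, 70.1 and 81.6, in both 6 h libraries.

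The nuclear lncRNAs were not among the regular members. Malat1, the abundant RNA of nuclear speckles, had 1 region of 50 nt, at percentile 97.3 in Sham replicate 1 and 96.2 in 0 h replicate 2 and in no other list. Neat1, the scaffold of paraspeckles, had 3 and 4 peaks in Sham, 2 and 0 at 0 h, none in either 6 h list, and 2 and 1 at 24 h. Its best percentile was between 32.5 and 66.0 in the 5 lists that held it. Miat had no peak.
Of the 16 genes on the written list of snoRNA hosts only Snhg11 (2 lists, 53.3 in Sham replicate 1 and 89.8 in 0 h replicate 1) and Gas5 (1 list, 6.66 in 24 h replicate 1) had one. That list does not hold every snoRNA host. Rian, with peaks in all 8 lists, was counted as imprinted, and Snhg7, with a region near Snora43 in 0 h replicate 2 (6.05), was not listed. A gene without a peak may have too little RNA or no m6A, and the lists do not separate these.

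Among the neural lncRNAs 5 of 8 had a peak, 4 of them in all 8 lists. Sox2ot (chr3:34158419-34789489, +), whose body spans the Sox2 gene of neural stem cells, led them. Its 2 regions of 75 nt in all 8 lists ranked at 99.3 and 99.6 in Sham and between 99.3 and 99.8 in the 6 MCAO/R lists. Dlx1as, antisense to the interneuron transcription factor gene Dlx1, was between 93.7 and 98.9 in its region chr2:71362157-71366876, but this region lies over Dlx1 exons and had a peak on the Dlx1 strand in 8 of 8 lists. Dlx6os1 (Evf2), which runs through the Dlx5 and Dlx6 locus, had its leading region chr6:6824188-6824567 outside coding bodies. It ranked at 77.6 and 91.6 in Sham, 78.0 and 88.6 at 0 h, 68.3 and 87.6 at 6 h, and 51.9 and 79.2 at 24 h, and in each group replicate 2 was the higher. Pantr1, beside the neuronal factor gene Pou3f3, ranked at chr1:42629954-42630628 at 74.1 and 81.9 in Sham, 86.2 and 92.4 at 0 h, 16.1 and 10.8 at 6 h, and 69.6 and 82.6 at 24 h. The 2 values of Pantr1 at 6 h were below the other 6. Sox1ot, which spans Sox1, was in 7 lists and covered 750 and 2025 nt at 6 h against 100 and 250 in Sham, at percentiles that never exceeded 54.6.
Of the other studied lncRNAs, Pvt1 (7 lists, best peak of each at 7.63 to 64.6), Lncpint (5 lists), Dleu2 (3 lists) and Norad (2 lists) had peaks, and 6 of 10 had none. Tug1 is annotated as protein-coding in the release used, so its 85 peaks are no members.

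**Figure D5:**
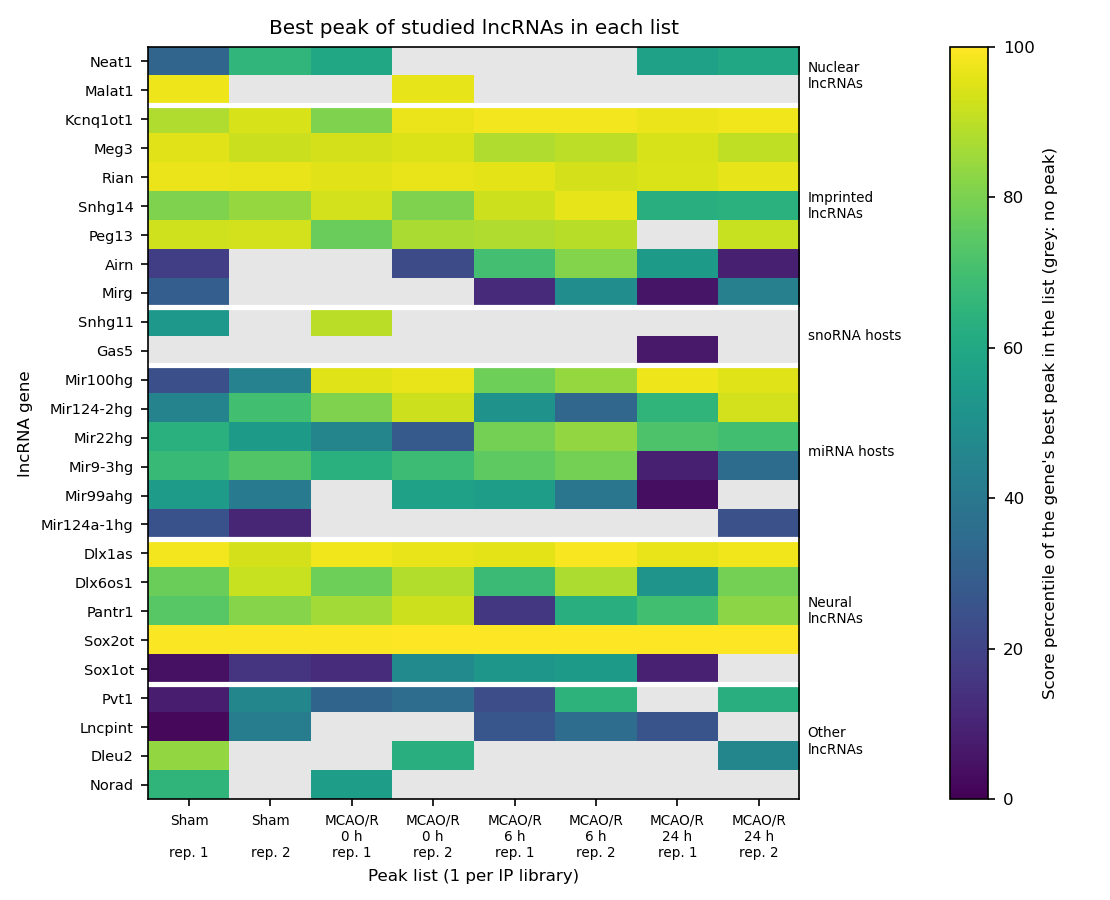
Score percentile of the best peak (colour scale, 0 to 100) of the studied lncRNAs with a peak (rows, grouped by role) in the 8 lists (columns), with grey where a list holds no peak of the gene. Sox2ot stays above 99 in every list, and Neat1 has no peak in the 6 h lists.

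MicroRNA host genes were well covered, with a peak in 6 of 9 and peaks in all 8 lists in 4 (Mir100hg, Mir124-2hg, Mir22hg and Mir9-3hg). Within 200 nt of an annotated microRNA lay 16 lncRNA regions, 4 of them overlapping it, and within 200 nt of a snoRNA lay 2, overlapping none. Mir9-2hg was chosen after its values were seen. It produces miR-9, a microRNA of neural progenitors and neurons, and had a region in all 8 lists at chr13:83886869-83887268 that overlaps the Mir9-2 hairpin (chr13:83886933-83887004). The stretch of 125 nt that all 8 lists shared is printed with the mature miR-9 sequences (RefSeq, GRCm38.p6, seed in capitals).
Mir9-2hg chr13:83886969-83887093 (+): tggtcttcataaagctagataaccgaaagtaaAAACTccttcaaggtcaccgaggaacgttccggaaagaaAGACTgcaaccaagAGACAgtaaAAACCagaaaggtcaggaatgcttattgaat
miR-9-5p: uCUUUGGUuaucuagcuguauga
miR-9-3p: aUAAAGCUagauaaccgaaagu
The 22 bases of miR-9-3p begin at base 9 of this stretch, and its 4 RRACH sites are in capitals. The region of Mir9-2hg ranked at 77.3 and 87.9 in Sham, 89.98 and 90.36 at 0 h, 93.3 and 90.5 at 6 h, and 78.3 and 87.4 at 24 h, so the 4 libraries of 0 h and 6 h were above the other 4. A second region of Mir9-2hg, chr13:83884741-83886868, adjoins the first and ends 64 nt before the hairpin. It ranked higher, at 97.6 and 99.2 in Sham, 97.2 and 97.3 at 0 h, 94.96 and 96.35 at 6 h, and 96.9 and 98.8 at 24 h. Here both 6 h values were below those of every other group, and both 0 h values were below both Sham values.
Near the other brain microRNAs, the Mir124-2hg region over Mir124a-2 was in 5 lists at 43.2 to 80.7, and a region of Gm27032 at 32 nt from Mir124a-3 was in 7 lists at 4.66 to 62.2. A region of E130102H24Rik at 46 nt from Mir101a was in 5 of the 6 MCAO/R lists, at 37.2 to 84.1, and in neither Sham list. The last 2 genes were likewise chosen after their values were seen.

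Against Sham, a region was counted as gained when both lists of a reperfusion time and no Sham list held it, and as lost in the opposite case. The 3 comparisons share the same Sham lists, so their counts are not independent. At 0 h, 105 of 2317 lncRNA regions (4.53%) were gained, against 3.84% of all regions tested, and 34 (1.47%) were lost, against 1.88%. At 6 h, 125 of 2341 (5.34%) were gained, against 4.89%, and 46 (1.97%) lost, against 2.03%. At 24 h, 110 of 2375 (4.63%) were gained, against 3.79%, and 43 (1.81%) lost, against 2.76%. The lncRNA shares stayed near those of all regions. All 6 MCAO/R lists and neither Sham list held 10 lncRNA regions (0.271%, against 0.257% of all regions), and both Sham lists and no MCAO/R list held 17 (0.460%, against 0.370%). Outside coding gene bodies lay 51 of the 105 regions gained at 0 h, 63 of 125 at 6 h and 55 of 110 at 24 h. Over a coding exon of the other strand lay 33, 41 and 31. These counts depend on single libraries. With both Sham lists gains outnumbered losses at each time, but without either Sham list the order turned, since a region then needs only 1 Sham list to be lost. Without Sham replicate 1 there were 185 gained and 363 lost at 0 h, 208 and 390 at 6 h, and 159 and 387 at 24 h. Without Sham replicate 2 there were 206 gained and 242 lost at 0 h, 218 and 277 at 6 h, and 185 and 282 at 24 h.

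Mir100hg, the host of miR-100, let-7a-2 and miR-125b-1, held the highest-ranking lncRNA region found in all MCAO/R lists alone, the 75-nt region chr9:41550892-41550966 printed above. It was absent from both Sham lists and ranked at 95.2 and 96.8 at 0 h, 78.0 and 84.3 at 6 h, and 97.3 and 95.3 at 24 h. A different region of Mir100hg, chr9:41492244-41492493, was in all 8 lists at 24.4 and 1.01 in Sham, 53.1 and 54.7 at 0 h, 62.3 and 60.2 at 6 h, and 53.3 and 52.9 at 24 h. In these regions, picked from 12 of the gene, the Sham lists were lowest. By contrast, chr9:41502175-41502349 was in Sham replicate 2 at 44.5 and in neither 24 h list. The region chr9:41501350-41501624 was in Sham replicate 2 at 4.32 and in no 0 h or 24 h list. The remaining regions were in no Sham list. The gene had 1 and 3 peaks in Sham and 3 to 8 in the MCAO/R lists.
4930532I03Rik and 4930447F24Rik, both in the bodies of coding genes but off their exons, were in both lists of 0 h and 6 h and in 24 h replicate 1 only. Their regions ranked between 92.0 and 98.4 and between 82.1 and 96.8. Gm12359 at 0 h (99.1 and 99.0) and Gm26827 at 6 h (99.6 and 99.3) led the gained regions of these times by rank. The Gm12359 region was also listed in 6 h replicate 1, at 98.9. The Gm26827 region lies over an exon of Chsy1, which makes chondroitin sulfate, and was also listed in 0 h replicate 1. 9330121J05Rik, over exons of Arhgef26, and Gm26672, on chromosome 18 over exons of the protocadherin gamma cluster, also had a region in the 6 MCAO/R lists alone, with a peak on the coding strand in 6 and 4 of them. In other regions both genes were listed in Sham, with 2 and 3 peaks for 9330121J05Rik and 5 and 6 for Gm26672.

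Among the regions of Sham alone, Gad1os, a transcript antisense to and upstream of Gad1 (the enzyme that makes GABA), had 2 regions. That outside coding bodies, printed above, ranked at 76.5 and 83.5 in the Sham lists, and the other, over an exon of Gad1, at 76.8 and 83.9. Neither had an overlapping peak on the other strand in the Sham lists, and the MCAO/R lists were not examined for one. Inhibitory neuron markers (Gad1, Gad2, Slc32a1) had a peak in 1 of 3 in both Sham lists and in 1 to 3 of 3 in the MCAO/R lists, and their part in the Gad1os result was not tested. Gm20481, over Hspa1a, ranked at 82.9 and 78.8 in Sham and had a peak on the Hspa1a strand in both Sham lists, so this loss cannot be told apart from a change on the Hspa1a RNA. A neighbouring region of Gm20481, chr17:35189038-35189137, was in both 24 h lists, at 35.1 and 16.8, and in neither Sham list, so the gene itself was not listed in Sham alone. Gm17344, antisense to Ap1g1, had peaks in all 8 lists, 3 of them in each 0 h list. Its region chr8:110586616-110587564 was missing at 0 h alone, with 99.4 and 91.9 in Sham and 91.2 to 99.8 in the 4 later lists, but the adjoining region chr8:110580341-110586597 stood at 99.42 and 99.46 in the 0 h lists, so the loss is that of 1 segment and not of the peaks of the gene. Gm20522, over Gpank1, was absent at 24 h alone, with 73.4 and 82.9 in Sham and 87.3 to 91.0 at 0 h and 6 h.

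Ranks within the 210 lncRNA regions of all 8 lists were compared in a count added after the lists were seen. Both Sham percentiles lay below all 6 MCAO/R percentiles in 18 of 210 (8.57%), against 6.83% of the regions of any kind in all 8 lists, and above them in 3 (1.43%), against 2.44%. The largest such gap was that of 2900052N01Rik, whose region ending at chr9:46832068 ranked at 26.2 and 4.68 in Sham, 71.4 and 70.3 at 0 h, 86.3 and 79.3 at 6 h, and 70.0 and 69.6 at 24 h. The neighbouring region of 2900052N01Rik, chr9:46832219-46833249, stayed between 97.9 and 99.8 in all 8 lists. The Mir100hg region above came next, and Gm48444 was the smallest of the 18, with 97.5 and 97.8 in Sham and 99.3 to 99.9 in the MCAO/R lists.

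By score, the leading lncRNA regions of all 8 lists were those of Gm37245 (99.93 to 99.99), Gm36992 (99.94 to 99.97), Gm26590 (99.74 to 99.95), Sox2ot, 2900052N01Rik, Gm48444, Gm26862 and Gm16054 (98.5 to 99.8). The lowest of these values was 97.5, that of Gm48444 in Sham replicate 1. Gm36992, Gm26590 and Gm16054 lie over exons of Cep170, Chd8 and Adgrl3 on the other strand, with a peak there in 5, 3 and 7 lists. Gm37245, Sox2ot, 2900052N01Rik and Gm26862 had theirs outside coding bodies. After Kcnq1ot1, the genes with the most regions were 1500004A13Rik (20), Gm26672 (17), Gm37233 (15) and Gm2824 (14). Gm37233 covered 550 and 925 nt in Sham, 725 and 1875 at 0 h, 800 and 750 at 6 h, and 2500 and 2150 at 24 h, where both values were above those of every other group.

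In Gm26862 the pair of regions in all 8 lists ranked within 0.1 points of each other in every list (98.89 and 98.92 in Sham replicate 1, 98.69 and 98.62 in 24 h replicate 2). They are shown because they sit on adjacent exons of 1 transcript, 25 nt apart once the intron of 54868 nt is removed.
Gm26862, upstream region, chr7:92697288-92697362 (+): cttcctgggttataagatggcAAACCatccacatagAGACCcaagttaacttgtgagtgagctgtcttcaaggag
Gm26862, downstream region, chr7:92752256-92752330 (+): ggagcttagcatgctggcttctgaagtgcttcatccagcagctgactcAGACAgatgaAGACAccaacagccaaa
Each holds 2 RRACH sites. Such pairs of 75-nt regions were found in 4 genes, Gm26862, Gm13780, Sox2ot and 4930505N22Rik, and in Gm13780 they were likewise 25 nt apart in the transcript. Whether each pair is 1 peak cut at a junction was not tested.

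Of the lncRNA peaks of a list, 215 to 395 crossed introns. Their rebuilt length was a multiple of 25 nt, the step of the peak caller's windows, in 56.0% to 62.1%, against 86.2% to 89.5% of all lncRNA peaks, so the exonic part of peaks across introns is less certain. As a check of the tissue, 4 or 5 of 5 excitatory neuron markers had a peak in every list, 2 or 3 of 4 astrocyte markers, 2 or 3 of 5 microglial and myeloid markers and 1 to 3 of 3 endothelial markers. Gfap, Ly6c2 and S100a8 had no peak in any list. The lists hold no read counts, so the depth behind each peak is unknown, and a region missing from a list is below the calling threshold in that library and not shown to be absent.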

How the data were processed

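MeRIP-seq was done on peri-infarct cortex with 2 IP and 2 input libraries in each of 4 groups. Per the study's methods, the authors trimmed reads with Trim Galore, aligned them to GRCm39 with HISAT2, dropped reads of multiple mapping (samtools) and ran exomePeak2 for peaks (p cutoff 0.05, log2 fold cutoff 0.5). They deposited 1 peak list per IP library, with a score per peak whose scale is not defined. The input libraries were not analysed here. The lists hold no counts, so depth is unknown and precision comes from the replicates.

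From there Python 3.11.15, numpy 2.4.6, pysam 0.24.0 and matplotlib 3.10.9 were used. Each peak, deposited as 1 block, was cut to the exons of a model of its gene in GENCODE M39 (GRCm39). The model left out TAGENE transcripts where a gene had others. For coding genes it kept transcripts tagged as basic and protein-coding, without readthrough, where present. Peaks that touched no model exon were cut to all exons of the gene. Peaks of 1 strand with 1 or more exonic bases in common formed a region. A shared stretch is the part of a region that most lists cover. Of the lncRNA peaks, 91 had a second gene with equal overlap. Groups were compared by one-sided exact permutation over 105 divisions into 4 pairs, and values within libraries by two-sided exact sign flips, with Benjamini-Hochberg adjustment within families of 3, 6 and 7 tests and a threshold of 0.05. Density outside peaks was taken from model exons alone, also for peaks on other exons, and needed 200 nt or more of them. The scripts were tested on simulated data.

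The members and gene lists were chosen with earlier results of these data known. Named genes were the members of lists of studied lncRNAs (nuclear, imprinted, snoRNA and microRNA hosts, neural, other), the 8 with the highest mean score percentile in all 8 lists, the 5 highest-ranking gained and lost at each time, the 5 with the most regions, and up to 5 in all MCAO/R lists or both Sham lists alone. Of the listed names, Nespas, Mir9-1hg, Peril, 1700020I14Rik and C130071C03Rik are not in the annotation under that name. Mature microRNAs came from RefSeq (GRCm38.p6), which matched 9 of 13 microRNA genes near a region. Alternatives were leaving out each library, the higher-scoring 50% or the same number (18775) of peaks per list, other gene sets, motifs (DRACH, GGAC), overlaps (50% of the shorter peak) and transcripts, and a replicate block. Comparison within 4 parts of the score and both alternatives on the other strand were chosen after seeing the data. Deviations of same-numbered libraries from their group means correlated at -0.00495 to 0.0182. Replicate 2 had the larger list and lncRNA share in all 4 groups, and the labels do not say whether replicate numbers pair the libraries.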

Additional observations from a re-analysis of the deposited data

How the results depend on the processing

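Of the alternatives, 179 values kept their direction and their side of the threshold, or moved by less than 1.5 times. A further 41 values, all counts of gained or lost regions, moved by more, 4 values reversed and 4 lost their side of the threshold. RRACH density of lncRNA against coding peaks reversed, to a log2 ratio of 0.0203 without peaks over a coding exon of the other strand and to 0.00116 for peaks outside coding gene bodies, and the replicate overlap reversed, to 0.426 points within parts of equal score rank. With every list cut to an equal count of its peaks the length difference reversed, to 5.75 nt, and 80 regions were gained at 6 h. The excess of shared regions within groups did not pass after adjustment in the reported setting. Its unadjusted exact permutation p exceeded 0.05 in 4 of the 8 settings that leave out a library, over which it ranged from 0.00774 to 0.0222, and it was 0.0271 with equal counts of peaks and 0.0469 in the higher-scoring 50% (exact permutation p = 0.00952 for both, unadjusted). The range of score percentiles between groups was 9.49 points with equal counts (exact permutation p = 0.581). The replicate block (24 arrangements, smallest p 0.0417) kept the values and gave exact permutation p of 0.25 for the lncRNA share, 0.833 for the score percentile and 0.0417 for the shared regions, and changed no call. Counts of gained and lost regions have no test and moved most. Leaving out a library gave 104 to 710 gained and 33 to 363 lost at 0 h, 124 to 596 and 47 to 390 at 6 h, and 111 to 667 and 41 to 387 at 24 h, since 1 list can then decide. The higher-scoring 50% gave 51, 63 and 56 gained and 15, 23 and 22 lost at 0, 6 and 24 h. Without peaks over a coding exon of the other strand they were 68, 81 and 73 gained and 18, 30 and 23 lost, and outside coding gene bodies 50, 60 and 53 gained and 16, 26 and 21 lost; fewer peaks enter these settings. Unknown depth limits any statement on a region missing from a list.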
